A study of Mus musculus with 12 samples.

Results

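Among the 51884 transcripts quantified, 257 were abundant in the mouse heart and scarce in the liver. They were chosen by 3 limits, namely a length under 12000 nt, a mean of at least 100 CPM (reads of a transcript scaled to 1000000 reads of its library) over 6 hearts, and a heart mean at least 100 times the mean over 6 livers plus 0.01 CPM. Control and treated animals were averaged together, so heart and liver levels chose the members and the comparison of treated with control mice did not. "Restricted" refers to these 2 organs alone, since no other tissue was sequenced.

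RNA was sequenced from the heart and the liver of 6 Swiss Webster mice, an outbred strain, aged 6 to 8 weeks. The labels give 3 controls as having no agent, and 3 treated mice as having received LKI-2 at 200 mg/kg, injected intraperitoneally 4 h before the organs were taken. The paper names the compound given at this dose and time TDI-011536, an inhibitor of the Lats kinases, and states that controls were injected with its vehicle. Each library is a homogenate of 1 organ of 1 mouse, and p-values measure the spread between the 3 mice of a group. In such homogenates, fewer cells of a type and less RNA per cell cannot be told apart.

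Most of the heart's mass is cardiomyocytes, whose cytoplasm is filled with sarcomeres, the contractile units built of myosin, actin, troponin and tropomyosin, and with mitochondria that burn fatty acids to fuel the beat. A few genes for contractile proteins, calcium-handling proteins and mitochondrial enzymes therefore supply a large part of the messenger RNA of this organ. The proteins of the cardiac sarcomere are not made by hepatocytes, whereas many mitochondrial enzymes are shared by both cell types. The Lats kinases of the Hippo pathway phosphorylate the cofactors Yap and Taz and keep them out of the nucleus, and inhibiting them lets Yap and Taz activate their target genes. The transcripts are known here only by identifiers that no table used here pairs with genes, so it cannot be said which members belong to these groups, and neither the tissue label nor other cell types could be checked by marker genes. Members are given below by identifier or by length.

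Total estimated counts ranged from 12618288 to 20533986 in hearts and from 24575658 to 31243782 in livers, and the heart of treated mouse 3 was the shallowest library. A further 2 features of the libraries touch the members. The heart of treated mouse 3 held the lowest value of the 6 hearts for 120 of the 257 members and the highest for 78. The liver of control mouse 2 held the highest value of the 6 livers for 239 of the 257. Results that rest on these 2 libraries are given with and without them.

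The 257 members took up a similar share of the reads of 5 hearts and a lower share in the heart of treated mouse 3. Their share of heart reads was 26.3%, 27.1% and 27.2% in control mice 1 to 3, a mean of 26.8% ± 0.49 (SD, n = 3). It was 26.9%, 26.7% and 24.2% in treated mice 1 to 3, a mean of 25.9% ± 1.48 (SD, n = 3). Treated mice 1 and 2 lay within the range of the controls, and treated mouse 3 lay below each of the other 5 hearts. The 95% Wilson intervals of these shares reach at most 0.0236 percentage points to either side and cover counting error only. The members' share of liver reads was between 0.0158% and 0.235%.

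The reads were concentrated in few members, which are called most abundant here by their reads. The first of them held 2.46% of all heart reads, the 5 most abundant 7.99%, and the 12 most abundant 13.4%, which is 50.8% of the members' own reads. The mean heart level was 1000 CPM or more for 45 members, and below 200 CPM for 80, with a median of 308 CPM. The 12 most abundant took 13.5%, 13.8% and 13.9% of reads in control hearts 1 to 3 and 13.6%, 13.3% and 12.4% in treated hearts 1 to 3. The other 245 took 12.8%, 13.3% and 13.2% in the controls and 13.3%, 13.4% and 11.8% in the treated hearts. Treated mouse 3 had the lowest heart value in both portions.

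**Figure D1:**
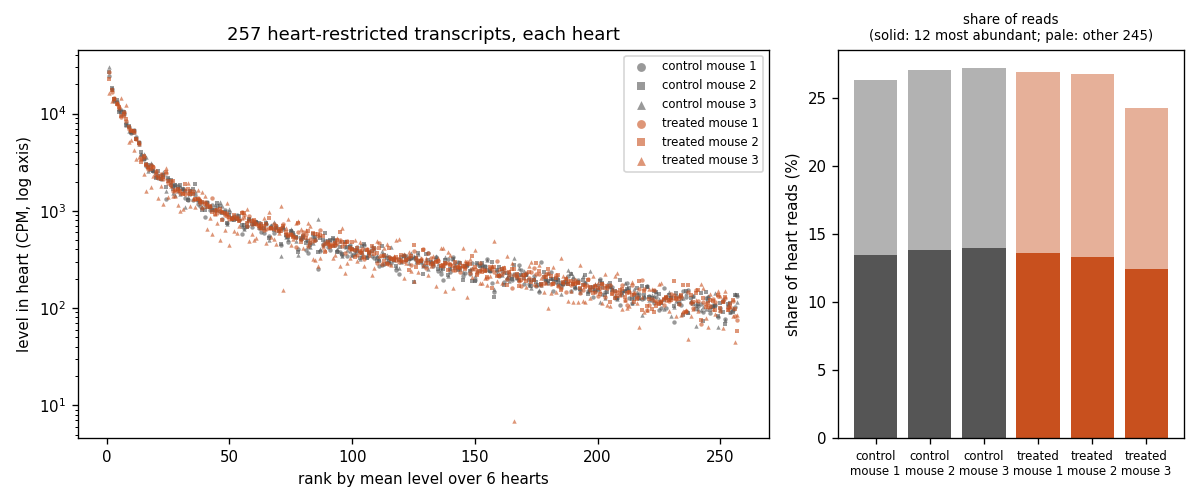
Left, the level (CPM, log axis) of each of 257 heart-restricted transcripts in each of 6 hearts, against its rank by mean level; gray marks are control and orange marks treated mice, with 1 shape per mouse number. Right, the share of heart reads taken by the 12 most abundant members (solid) and by the other 245 (pale), which together are 26.3%, 27.1%, 27.2%, 26.9%, 26.7% and 24.2%.

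The most abundant member, uc007txr.2, is 6015 nt long. Its heart levels were 24320.1, 27062 and 29873 CPM in control mice 1 to 3 and 26997, 22898 and 16474 CPM in treated mice 1 to 3. The groups overlapped, and treated mouse 3 was the lowest. The second, uc011zve.1, is 968 nt long and reached 17775.5, 18212 and 17886 CPM in the control and 16755, 17368 and 13462 CPM in the treated hearts. Here each treated heart lay below each control heart, but the log2 fold change of -0.13 (SE 0.12) did not pass edgeR's quasi-likelihood test (adjusted p = 0.810). The third, uc008zli.2, of 4315 nt, had 13584, 14019.7 and 13844 CPM in the control and 14629.9, 14097 and 14126 CPM in the treated hearts. Each treated heart lay above each control heart, with a log2 fold change of 0.10 (SE 0.06) that did not pass the test (adjusted p = 0.697, edgeR). The fourth, uc008zkp.1, of 633 nt, had 13189, 13797 and 12892 CPM in the control and 12491, 12590.1 and 13172 CPM in the treated hearts. Unlike the first 2, it was not at its lowest in treated mouse 3. The fifth, uc008lpz.2, of 1459 nt, had 10882, 10460.4 and 11425 CPM in the control and 11294, 11682 and 12331 CPM in the treated hearts. The groups overlapped for this member as well.

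The ranks and classes given here by CPM order members by their reads, and reads grow with length. Per length, levels were compared as TPM (reads divided by the effective length and scaled to the same sum in every library). By mean TPM over the 6 hearts, 6 of the 10 most abundant members by CPM remained among the first 10. The highest value, 84657 TPM, belonged to a member of 168 nt that ranked 72 by CPM. Its effective length is 7.16 nt in the files, by which its level of 596 CPM is divided. Next came uc008zkp.1 at 35477 TPM (mean over 6 hearts) and uc011zve.1 at 24403 TPM, and then a member of 640 nt at 16829.8 TPM. The most abundant by CPM, uc007txr.2, ranked 15 at 4412 TPM. Of the first 10 by TPM, the longest measured 1459 nt. The members as a whole were not short, with a median length of 3036 nt (quartiles 1886 and 4953 nt), against 2665 nt for the 1351 other transcripts of at least 100 CPM in the heart.

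A member shares reads with other transcripts when its estimated count is fractional, because Salmon divides a read that fits several transcripts among them. Of the 257 members, 57 (22.2%) had whole counts in all 6 hearts, against 427 (31.6%) of the 1351 other abundant heart transcripts. A count was called whole only below 100000, so a member at or above this limit in any heart was not called whole, whatever its count. This holds for the most abundant members, and whether they share reads was not tested. Both shares can therefore be too low. For members with fractional counts a level or change belongs to the transcript as estimated, and the total of its gene could differ. Lengths were equal for only 3 pairs of members, 6 transcripts in all.

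At the edges of the rule, the members and the transcripts left out lay close together. The lowest heart mean inside was 100.5 CPM and the highest outside was 99.5 CPM. The lowest ratio of heart to liver inside was 100.15 and the highest outside was 93.6. The longest member measured 11971 nt, and the shortest transcript left out for its length alone measured 12278 nt, 1 of 9 such transcripts.

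The inhibitor left most of these transcripts close to their control level in the heart. Of the 257, 231 had a log2 fold change within 0.5 of 0, 20 were above it and 6 below, and the median was 0.02, against -0.03 over all 22281 transcripts tested. Quartiles were -0.14 and 0.21 for members, -0.08 and 0.23 for the 1351 other abundant heart transcripts, and -0.35 and 0.30 over all tested. Closeness to the control level was therefore not particular to the members. By edgeR's quasi-likelihood test, 3 members were higher and 1 was lower after treatment at an adjusted p under 0.05. These are 1.17% and 0.389% of the members, against 0.404% higher and 0.0898% lower over all tested transcripts, most of which were measured with fewer reads. Among the 1351 other abundant heart transcripts, 15 (1.11%) were higher and 0 lower by the same test, with 20 lower at an unadjusted p under 0.05, and 7 lower by DESeq2. At an unadjusted p under 0.05, 43 members (16.7%) were higher and 9 (3.50%) lower, against 6.12% and 4.66% of all tested and 14.1% and 1.48% of the other abundant transcripts. For the higher direction the members' shares lay nearer to those of the other abundant transcripts, and for the lower direction nearer to those of all tested, which was not tested.

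The largest rise among the members that passed was that of uc011yya.1, a transcript of 5641 nt. It had 407, 373 and 350 CPM in control hearts 1 to 3 and 603, 745 and 779 CPM in treated hearts 1 to 3, or 377 ± 28.9 and 709 ± 93.4 CPM (SD, n = 3). The groups did not overlap, and the log2 fold change was 0.96 (SE 0.11, adjusted p = 0.0387, edgeR). Next was uc009plj.1, of 6364 nt, with 76.5, 68.6 and 75.3 CPM in the control and 126, 129 and 149 CPM in the treated hearts. All treated hearts were higher, by a log2 fold change of 0.92 (SE 0.09, adjusted p = 0.0317, edgeR). The remaining member that rose, of 3814 nt, had 81.6, 82.5 and 64.5 CPM in the control and 132, 138 and 149 CPM in the treated hearts. Its log2 fold change was also 0.92 (SE 0.11, adjusted p = 0.0479, edgeR), so the 3 rises were of nearly 1 size, about 1.89- to 1.94-fold.

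The member that fell was uc007rfe.1, of 2746 nt. Its levels were 167, 165 and 168 CPM in the control hearts and 94.7, 105 and 95.2 CPM in the treated hearts, with a control mean of 167 ± 1.6 and a treated mean of 98.4 ± 5.96 CPM (SD, n = 3). Every treated heart was lower, and the log2 fold change was -0.71 (SE 0.08, adjusted p = 0.0374, edgeR). For uc009bbt.2, of 4268 nt, the values were 130.0, 149 and 142 CPM in the control and 93.6, 90.7 and 95.4 CPM in the treated hearts. The groups were apart here too, but the log2 fold change of -0.54 (SE 0.08) did not pass (adjusted p = 0.0739, edgeR).

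Of these 4 members that passed edgeR, 0 had whole counts in all hearts, so each shares reads with another transcript. With the heart of treated mouse 3 left out, 1 member was higher and 1 lower by edgeR, against 0.282% and 0.0716% of all tested. They were uc009plj.1 (adjusted p = 0.0410, edgeR) and uc007rfe.1 (adjusted p = 0.0494, edgeR), whereas uc011yya.1 had an adjusted p of 0.0771 with a log2 fold change of 0.91. An unadjusted p under 0.05 was reached by 59 (23.0%) and 9 (3.50%), against 6.47% and 6.19% of all tested. Among the other abundant heart transcripts these shares were 19.8% and 3.63%. When the dropped heart was instead that of control mouse 1, 2 or 3, or of treated mouse 1 or 2, edgeR called 0 members in each direction. The members with an unadjusted p under 0.05 then numbered 27 to 38 (higher) and 7 to 11 (lower). In these 5 fits edgeR also called 0 of all tested transcripts in each direction, and those past an unadjusted p of 0.05 made up 4.58% to 6.39% (higher) and 2.93% to 5.16% (lower). DESeq2's Wald test called 26 members higher (10.1%) and 5 lower (1.95%), against 3.08% and 1.78% of all transcripts to which it gave an adjusted p. Of the other abundant heart transcripts it called 8.96% higher, near the share of the members, and 0.518% lower. By limma-voom 3 members (1.17%) and 1 (0.389%) were called, against 0.507% and 0.0987% of all tested and 1.41% and 0% of the other abundant transcripts. Both methods called the 4 members that edgeR called.

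**Figure D2:**
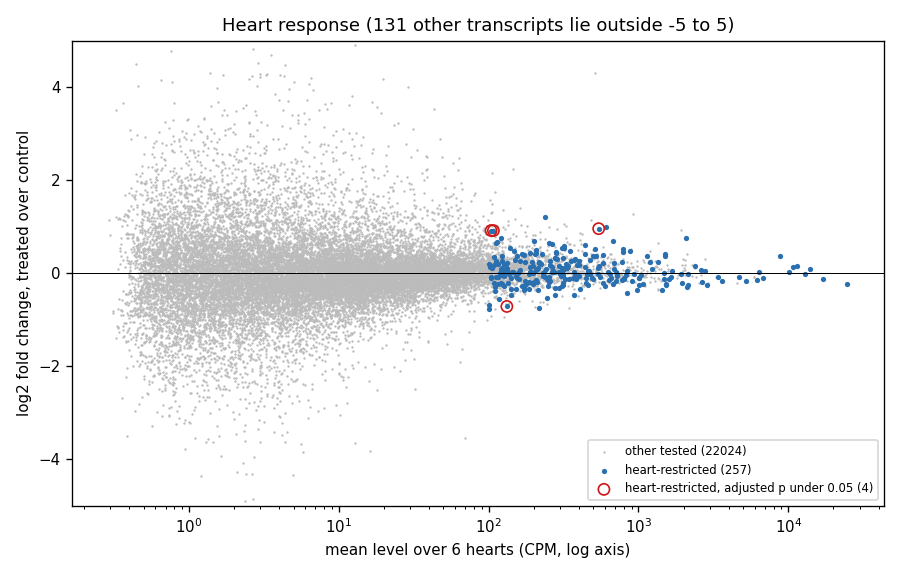
Log2 fold change of treated over control hearts against the mean level over 6 hearts (CPM, log axis) for 22281 tested transcripts; 257 heart-restricted transcripts are blue, the 4 with an adjusted p under 0.05 are ringed, and 131 other transcripts lie beyond the axis. Of the ringed points, 3 lie between 0.92 and 0.96 and 1 at -0.71. None is among the 45 members of 1000 CPM or more, too few to set that class apart.

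The response was described further by level and by length. None of the 45 members of 1000 CPM or more passed edgeR's test, and their lowest adjusted p was 0.0739, with 5 higher and 1 lower at an unadjusted p under 0.05. That value belonged to a member of 1765 nt, singled out after its values were seen. It had 1330.5, 1751 and 1604 CPM in the control hearts and 2456, 2536 and 2725 CPM in the treated hearts. The groups did not overlap, and the log2 fold change was 0.77 (SE 0.12) with whole counts in all hearts. By DESeq2 its adjusted p was 2.93e-08. The 12 most abundant members had log2 fold changes from -0.24 to 0.37, a median of 0.00 and a lowest adjusted p of 0.422 (edgeR). Among the 132 members of 200 to 1000 CPM, 1 was higher and 0 lower by edgeR, with 29 and 2 at an unadjusted p under 0.05. Among the 80 members below 200 CPM, 2 were higher and 1 lower, with 9 and 6 at an unadjusted p under 0.05. Over all tested transcripts, 0.404% were called higher and 0.0898% lower, with 6.12% and 4.66% at an unadjusted p under 0.05. At such shares, 0 calls among 45 members do not set the class of 1000 CPM or more apart. The largest log2 fold change of all members, 1.22 (SE 0.28), was that of a member of 2495 nt with 146, 131 and 157 CPM in the control and 237, 263 and 485 CPM in the treated hearts. The groups were apart, but treated mouse 3 stood well above the other treated mice, and the change did not pass (adjusted p = 0.170, edgeR).

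**Figure D3:**
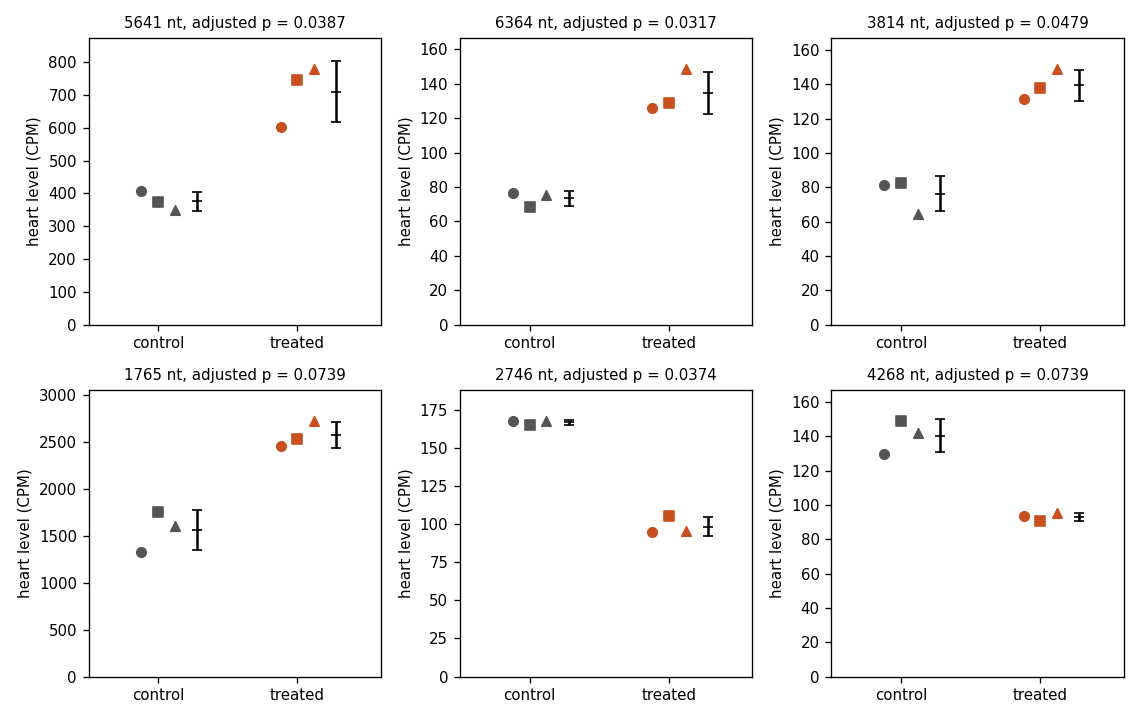
Heart level (CPM) of 6 heart-restricted transcripts, titled by length and edgeR's adjusted p, in 3 control (gray) and 3 treated mice (orange; circle, square and triangle are mice 1, 2 and 3); the bar beside each group is the mean and SD. In each panel the groups do not overlap, with 377 against 709 CPM for the member of 5641 nt and 167 against 98.4 CPM for that of 2746 nt.

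Every treated heart lay above every control heart for 42 members (16.3%) and below for 34 (13.2%), against 8.49% and 14.4% of all tested transcripts, in CPM. With TMM scaling, which edgeR uses to correct for the make-up of a library, these counts were 52 (20.2%) and 15 (5.84%), against 10.8% and 11.7%. The balance of higher and lower members depended on the scaling, and with scaling to total counts in place of TMM edgeR called 1 higher and 1 lower, against 0.274% and 0.0808% of all tested. The median log2 fold change of the members was -0.03 with scaling to total counts, 0.02 with TMM and 0.03 with DESeq2's size factors. Over all tested transcripts the same 3 scalings gave -0.08, -0.03 and -0.02. Of the members, 133 were above 0 and 124 below with TMM.

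The spread between mice was larger among treated than among control hearts. The median coefficient of variation of a member was 7.04% over the 3 control hearts and 17.4% over the 3 treated hearts, but 5.34% over treated mice 1 and 2 alone. For the 1351 other abundant heart transcripts these medians were 4.90%, 13.7% and 4.35%. The last value of each set comes from 2 mice and tends to be lower than a value from 3 mice. It therefore cannot be ranked against that of the controls. The highest of the 6 hearts was at least 2 times the lowest for 42 members, and for 11 without treated mouse 3. The widest case was a member of 5040 nt with 224, 276 and 327 CPM in the control hearts, 217 and 251 CPM in treated mice 1 and 2, and 6.95 CPM in treated mouse 3, a range of 47.1-fold. Its counts are fractional. In the member of 168 nt, treated mouse 3 had 155 CPM, against 647 to 732 CPM in the other 5 hearts. For 1 of the 2 members of 1481 nt the extremes were both controls, with 253, 379 and 833 CPM in the control and 548, 574 and 268 CPM in the treated hearts. The controls thus spanned a wider range than the treated mice.

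Short members were low in the heart of treated mouse 3. For the 17 members under 1000 nt, the median log2 ratio of this heart to the mean of the other 5 was -0.47 (quartiles -0.68 and -0.29), and 14 of the 17 were below 0. The median was -0.21 for the 53 members of 1000 to 2000 nt, -0.08 for the 96 of 2000 to 4000 nt and -0.11 for the 91 longer ones. In the other 5 hearts the medians of the shortest class lay between 0.02 and 0.12. The 17 short members took 6.06% to 6.33% of reads in those 5 hearts and 4.83% in treated mouse 3. Among the other abundant heart transcripts, the medians of treated mouse 3 were -0.13, -0.09, 0.13 and 0.22 from the shortest to the longest class. This heart also held the most reads of the 323 transcripts that meet the same rule with the organs exchanged, 0.0608% against 0.0266% to 0.0354% in the other hearts. The part of depth, RNA quality or liver RNA in these values was not tested.

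**Figure D4:**
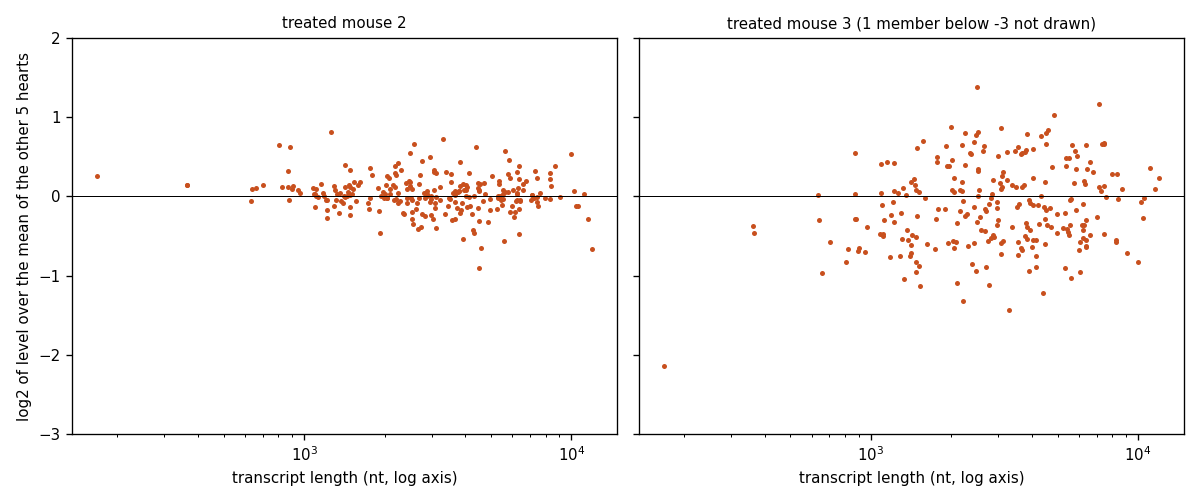
Log2 ratio of each member's level in 1 heart to its mean over the other 5 hearts, against transcript length (nt, log axis), for treated mouse 2 (left) and treated mouse 3 (right, 1 member below -3 not drawn). Points of treated mouse 2 lie close to 0, whereas those of treated mouse 3 are spread widely, with a median of -0.47 under 1000 nt.

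In the liver the members left traces, which were highest in control mouse 2. Their summed level was 243, 2350.0 and 239 CPM in the livers of control mice 1 to 3, or 6476, 71159 and 5878 reads, and 175, 158 and 238 CPM in those of treated mice 1 to 3. The liver of control mouse 2 thus held 9.66 times the sum of the next highest liver. In that library the level of a member relative to that in the same mouse's heart had a median of 0.893% and quartiles of 0.716% and 1.18%. This portion lay within 2-fold of its median for 224 of the 257 members, and 5 members had 0 reads. In the other 5 livers the median portion was between 0.00337% and 0.0508%, and 51 to 105 members had 0 reads, for which 3 reads, the most that a count of 0 allows, correspond to 0.0960 to 0.122 CPM. The ratio of the liver of control mouse 2 to each heart in turn was taken over 252 members. Its interquartile range on the log2 scale was 0.62 to 0.69 for 5 hearts and 1.09 for treated mouse 3. The heart of the same mouse gave 0.69, and ranges this close do not single out any of these 5 hearts.

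**Figure D5:**
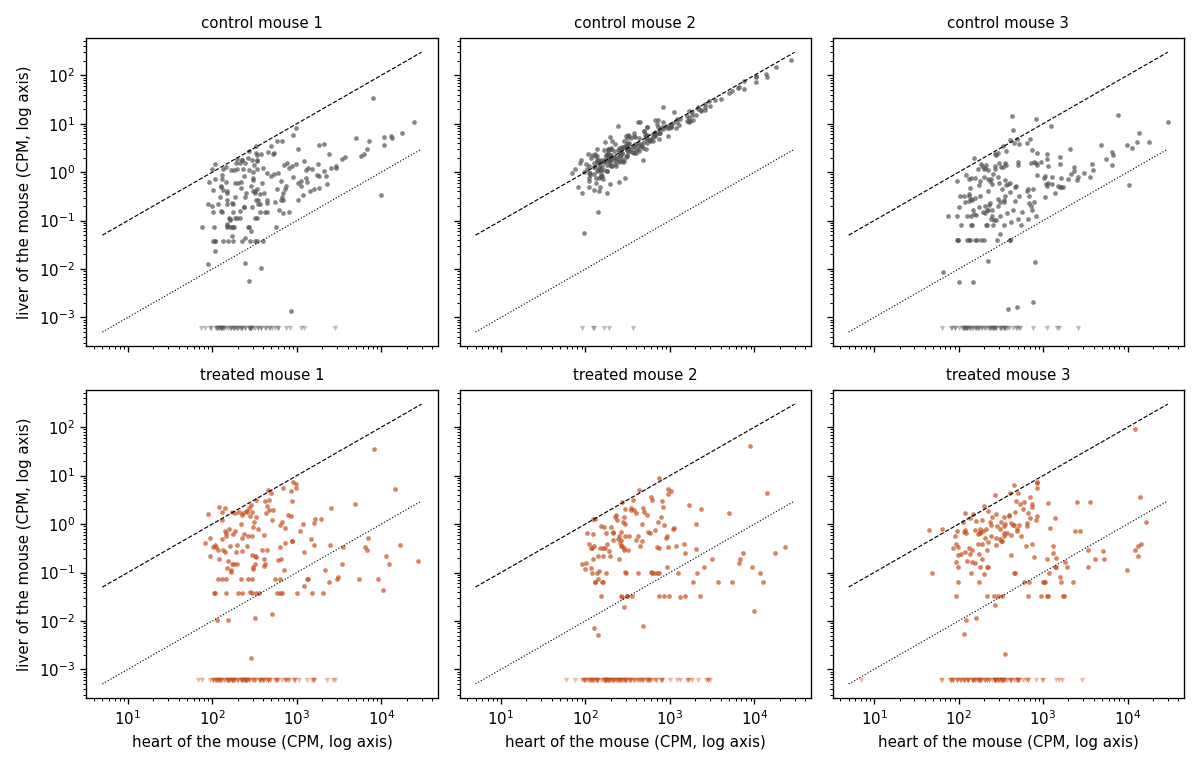
Level of each of 257 members in the liver against that in the heart of the same mouse (CPM, log axes), 1 panel per mouse; the dashed line marks 1% and the dotted line 0.01% of the heart level, and triangles at the bottom are members under 0.001 CPM in the liver. Only in control mouse 2 do the points follow the dashed line, with a median of 0.893%.

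The 12 most abundant members together summed to 83.2, 1096 and 56.3 CPM in control livers 1 to 3 and 42.8, 46.4 and 99.1 CPM in treated livers 1 to 3. The groups overlapped, and a single member of 4049 nt made up most of this sum in the treated livers. Without that member, which was set aside after its values were seen, the sum over the other 11 was 49.0, 1021 and 40.8 CPM in control livers 1 to 3 and 7.45, 6.04 and 7.12 CPM in treated livers 1 to 3. For these 11 each control liver lay above each treated liver, control mouse 2 far above the other controls. Over all members, in contrast, the mean of control livers 1 and 3 was only 1.27 times that of the treated livers. For uc007txr.2 the values were 10.8, 203 and 10.6 CPM in the control and 0.172, 0.335 and 1.10 CPM in the treated livers. For uc008zkp.1 they were 5.60, 106 and 4.11 CPM against 0.149, 0.0640 and 0.354 CPM. By contrast, uc008zli.2 had 4.97 and 6.35 CPM in control livers 1 and 3 and 5.19, 4.47 and 3.70 CPM in the treated livers, with no gap of that size, and 92.3 CPM in control liver 2. The member of 4049 nt had 34.2, 74.8 and 15.5 CPM in the control and 35.4, 40.4 and 92.0 CPM in the treated livers, and made up 20.7% of the mean trace without control liver 2. It overlapped between the groups and was the highest member in each of the 5 other livers. Over all 257 members, the 3 control livers were above the 3 treated livers for 99 (38.5%) and below for 2 (0.778%), against 19.8% and 6.89% of the 37239 transcripts with a read in any liver. Without control liver 2, the remaining controls were above all treated livers for 99 and below for 14, against 24.8% and 9.14%.

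By edgeR's quasi-likelihood test in the liver, 0 members were higher and 0 lower among the 115 that passed the filter on low counts, against 6.09% and 3.37% of the 20628 transcripts tested, with 1 and 36 at an unadjusted p under 0.05, against 13.5% and 10.9%. DESeq2 called 1 higher and 16 lower of the 175 members to which it gave an adjusted p, against 9.62% and 6.80% of all such transcripts. Limma-voom called 0 and 0 of the 115, against 6.00% and 3.44% of all tested. It had 2 and 5 at an unadjusted p under 0.05, against 14.1% and 11.7%. The filter on low counts asks for enough reads in as many libraries as a group holds, so control liver 2 alone cannot admit a member. A member low in the treated livers can still pass through the control livers alone. Neither these counts nor their direction therefore describes all members. Without control liver 2, edgeR called 1 higher and 1 lower of 113, against 1.63% and 0.364% of all tested, with 3 and 22 at an unadjusted p under 0.05, against 11.5% and 7.93%. The cause of the higher traces that some members had in control livers was not tested.

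The liver of control mouse 2 also set much of the ratio by which the members were chosen. The median ratio of heart to liver was 521 over all libraries and 2208 without that liver, and 15 members had a ratio over 1000 with it and 162 without it. Without that library, 264 transcripts met the rule, namely all 257 members and 7 more. Without the heart of treated mouse 3, 256 met it, of which 252 were members.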

How the data were processed

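Hearts and livers of 3 control and 3 treated mice gave 12 libraries from a stranded kit for messenger RNA. The authors deposited estimated counts per transcript, not normalized, made with Salmon 0.8.2. DESeq2 1.20.0 and the build mm10 also stand in the submitters' processing notes. Of trimming, settings and the transcript release, the sources used here say nothing. Each file holds 2 tables of 51884 transcripts. The first was used. The deposited lengths and effective lengths are in nt and gave TPM. Groups came from the sample titles.

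Estimated counts were rounded, filtered by filterByExpr (minimum count 10), scaled by TMM and tested with edgeR 4.0.16 (R 4.3.3) in each organ apart over all transcripts, with Benjamini-Hochberg adjustment at 0.05 and tests checked on simulated counts. Each standard error (SE) was obtained as the absolute log2 fold change over the root of the F statistic. DESeq2 1.42.0 and limma 3.58.1 were alternatives, with Python 3.11.15 for summaries. Counts were called whole within 1e-06 and below 100000. Named are the 5 most abundant members and, per direction, the 2 largest changes that passed without overlap of the groups, filled by lowest p. Others given by length were chosen after seeing their values. Members and lists were chosen with earlier results of these data known. Marker and gene lists could not be applied, since identifiers are not paired with genes here.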

Additional observations from a re-analysis of the deposited data

Results flagged for a closer look

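Of the members named for their change, 2 lay apart in opposite directions in the heart and the liver, and the difference between organs was not tested. Among all 257 members, 10 had each treated heart above and each treated liver below the controls (3.89%, against 1.38% of all transcripts tested in the heart), and 1 had the reverse (0.389%, against 0.763%). Each part of the first pattern was also more frequent among the members when taken alone. Treated hearts were above for 16.3% (8.49% of all tested), and treated livers below for 38.5% (19.8% of transcripts with a read in any liver). The count of 10 therefore does not show a link between the organs, which was not tested. Transcript uc011yya.1 had a log2 fold change of 0.96 in the heart, with each treated heart above each control heart. In the liver it had 0.375, 3.47 and 0.328 CPM in control mice 1 to 3 and 0.178, 0.314 and 0.212 CPM in treated mice 1 to 3. Transcript uc009plj.1 had a log2 fold change of 0.92 in the heart, and in the liver 0.0752, 0.958 and 0.122 CPM in the control and 0, 0.0640 and 0 CPM in the treated mice. The liver values of uc009plj.1 rest on few reads, with 29 in control mouse 2 and at most 3 in each other liver. Those of uc011yya.1 also rest on few reads outside control mouse 2. It had 9.98, 105 and 8.05 estimated reads in the livers of control mice 1 to 3 and 4.78, 9.80 and 6.59 in those of treated mice 1 to 3. The liver of treated mouse 2 thus held more of its reads than that of control mouse 3, and only scaling by depth set them apart.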

How the results depend on the processing

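Counts of members that passed in the heart (3 higher, 1 lower by edgeR) were within 1.5 times under DESeq2's size factors, limma-voom, a minimum count of 50 and the second table. Transcripts with whole counts tested alone, an alternative chosen after seeing the data, also gave 3 and 1 (of 57, 5.26% and 1.75%, against 4.73% and 3.68% of all tested), but of other members, since 0 of the 4 have whole counts. Scaling to total counts, likewise chosen afterwards for these counts, gave 1 and 1. The counts were 1 and 0 without a filter, 26 and 5 by DESeq2's Wald test, 0 and 0 with all 12 libraries in 1 fit (4 and 1 at an unadjusted p under 0.05), 0 to 1 and 0 to 1 without 1 library, and 0 and 0 with the replicate number as a block (36 and 7 with an unadjusted p below 0.05). Of all tested, these settings called 0.190% and 0.0321% without a filter, 0.511% and 0.163% with 12 libraries, and 0 and 0 with the block (4.65% and 3.13% unadjusted). With 12 libraries the unadjusted shares were 1.56% and 0.389% of members, against 5.05% and 4.34% of all tested. Of the 1351 other abundant heart transcripts, that fit called 20 higher and 0 lower (12.3% and 0.962% unadjusted). It also holds the livers, and the SE of uc009plj.1 was 0.51 in it, against 0.09 in hearts alone. The mouse numbers gave no sign of pairs across the groups. Deviations of same-numbered hearts 1 to 3 correlated at -0.01 to 0.03 over all tested transcripts and at -0.06, -0.26 and -0.17 over the members. Not every heart correlated best with its own number. Such values cannot settle whether mice of the same number shared a step of handling. In the liver (0 and 0 of 115), DESeq2 gave 1 and 16 of the 175 members with an adjusted p. All 12 libraries in 1 fit gave 1 and 43 of 257 (0.389% and 16.7%, against 5.30% and 3.74% of all tested). Members beyond the 115 passed the filter of that fit only with the hearts, where the rule made them high. The 1 and 43 can therefore show no change in the liver. Leaving out 1 liver library gave 0 to 1 and 0 to 1. A minimum count of 50 gave 3 lower of 38 there (7.89%, against 5.82% of all tested), and whole counts tested alone 20 of 44 (45.5%, against 14.8%). As shares of TPM the members held 32.5% in control and 31.2% in treated hearts and 0.00815% in treated livers. The heart shares include the member of 168 nt, which alone held 84657 of 1000000 TPM (mean over 6 hearts) at an effective length of 7.16 nt. With TPM in place of CPM, 157 transcripts met the rule, 143 of them members, and with TMM-scaled CPM 173 did. The cause of these shifts was not tested, apart from fewer libraries or transcripts where the setting removes them. The median heart log2 fold change moved by less than its spread between treated mice (SD 0.12) under each alternative. Of the values of the 4 named members under alternatives, 25 no longer passed, 1 newly passed and 34 kept their side, with 0 reversed in direction. Of the 34, 14 belong to uc009bbt.2, which did not pass at first, as does the 1 that newly passed. The members uc011yya.1, uc009plj.1 and uc007rfe.1 still passed under 5, 8 and 7 of 15 alternatives. The member of 3814 nt that passed was not among the named. At 3 mice per group and levels under 1 CPM in most livers, depth limits what can be said of liver traces.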
